A study of Homo sapiens with 4 samples.

Results

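The 10 genes described here store iron, release it from heme, carry it into and out of cells, or sense it. They are FTH1, FTL, HMOX1, TFRC, STEAP3, SLC11A2, SLC40A1, NCOA4, IREB2 and ACO1. They were chosen by symbol in a deposited table of 17791 genes. All 10 were found there, 1 row each, and all 10 passed the filter on low values (at least 1 count per 1000000 in 1 or more libraries), as did 14851 genes in all.

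Cells take up iron bound to transferrin through the transferrin receptor, reduce it in the endosome and move it to the cytosol. Iron that is not used is stored inside ferritin, a hollow shell built of heavy and light chains, or leaves the cell through ferroportin. Heme oxygenase opens the heme ring and frees its iron. Iron regulatory proteins bind a hairpin in messenger RNA, the iron-responsive element, when iron is scarce: bound near the start of a ferritin or ferroportin message they block translation, and bound in the tail of the transferrin receptor message they slow its decay. Prostate cancer cells have often been studied for their high demand for iron.

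The study grew PC-3 cells, a line from a bone metastasis of prostate cancer, together with BJ-5ta cells, normal human fibroblasts kept dividing with telomerase. The engineered prostate cancer tissues (EPCaTs) held both lines in a gel of poly(ethylene glycol) joined to fibrinogen (PF), seeded at 5 PC-3 cells to 1 BJ-5ta cell and a density of 20 × 1000000 cells per mL, and were taken on day 15. PEGDA, a crosslinker, was added at 2% or 3% w/v in 2 of the 3 gels to tune stiffness, and these gels are called PF+2%PEGDA and PF+3%PEGDA, against PF with no added PEGDA. The fourth group was both lines grown flat, called 2D. No group had a treatment, deletion or transgene named in the labels, the RNA of each gel group was isolated from more than 2 tissues, and that of the 2D group from 1000000 cells. The day and the cell ratio of the 2D culture are not given in the sources used here, so time, starting mix and culture format cannot be told apart in any comparison with 2D.

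Each group had 1 library, so no difference has a replicate check and no test between groups was possible. The libraries held 13760317 to 15687912 counts, and 1 count was worth 0.0600 to 0.0734 CPM, counts per 1000000 of the scaled library size. Intervals are exact Clopper-Pearson 95% intervals and cover counting error only. A gene is called higher or lower when the difference was at least 2-fold and the interval excluded equality. Most markers of fibroblasts were lower in the EPCaTs than in 2D: 11 of 14 tested were called lower in all 3, beside 6.07% of all genes. The list summed to 663 to 912 CPM in EPCaTs against 4389 in 2D. PDGFRA went the other way, at 19.7 to 24.9 CPM in EPCaTs against 17.4 in 2D. CTNNA1, which PC-3 cells have lost, was at 5.40 to 8.29 CPM in EPCaTs and 33.1 in 2D. Epithelial markers summed to 5833 to 6653 CPM in EPCaTs and 4256 in 2D. Of 12 tested, CDH1, KRT8, ELF3 and ST14 (4) were called higher in all 3 EPCaTs, beside 7.84% of all genes, and 0 lower. KRT7 and KRT18 lay below 2D in every EPCaT, and CLDN4 and ESRP2 lay on both sides of it. Of 6 endothelial markers listed, the 3 tested (PECAM1, KDR and ESAM) were called higher in all 3 EPCaTs, beside 7.84% of all genes. VWF and TEK were under 1 CPM in every library, and CDH5 was not in the deposited table. Of the macrophage markers tested, which matter here because macrophages recycle iron, CD14 and LYZ stayed at or under 2.16 CPM in every library, and CD68 was at 53.3 to 66.6 CPM in EPCaTs and 118 in 2D. Fewer cells of a type and less RNA per cell cannot be told apart in such bulk samples, and the part of the cell mix in the differences from 2D was not tested.

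The iron-responsive elements of these messages are shown because iron regulatory proteins bind this hairpin. The search finds a sequence pattern and cannot decide which matches act in cells. Transcripts of GENCODE release 29 (GRCh38) were searched on the sense strand for the loop CAGTGN closed by an upper stem of 5 pairs (A-T, G-C or G-T) with a C just before the stem. A match was found in 4 of the 10 genes. Sequences are 5′ to 3′, with the loop in capitals. The 5 bases on each side of the loop are the stem that was searched, and the bases beyond it are context whose pairing was not searched. The heavy and light ferritin elements lie in the 5′ UTR, at chr11:61967574-61967602 (minus strand) and chr19:48965335-48965363 (plus strand).
FTH1: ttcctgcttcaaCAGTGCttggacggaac
FTL: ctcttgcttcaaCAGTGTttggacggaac
SLC40A1: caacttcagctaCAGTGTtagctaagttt
TFRC site 1: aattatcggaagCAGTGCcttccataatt
TFRC site 2: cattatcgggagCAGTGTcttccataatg
TFRC site 3: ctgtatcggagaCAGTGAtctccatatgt
TFRC site 4: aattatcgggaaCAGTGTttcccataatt
The SLC40A1 element lies in the 5′ UTR at chr2:189580661-189580689 (minus strand). The TFRC elements found by this search all lie in the 3′ UTR on the minus strand of chromosome 3. They are at chr3:196050979-196051007, chr3:196050575-196050603, chr3:196050510-196050538 and chr3:196050463-196050491, within a span of 545 bases. The ferritin elements share 26 of 29 bases and differ by T1C, C4T and C18T, counted from the 5′ end with the FTH1 base first. Of the protein-coding transcripts in GENCODE, 7 of 8 held the element for FTH1, 1 of 1 for FTL, 1 of 5 for SLC40A1 and 3 of 4 for TFRC. Counts were per gene, so the share of each message that held an element was not measured. Weaker matches, with 4 of the 5 pairs, lie in the 3′ UTR of SLC11A2 at chr12:50988269-50988297 (minus strand), ACO1 at chr9:32452986-32453014 and IREB2 at chr15:78500969-78500997 (both plus strand).
SLC11A2: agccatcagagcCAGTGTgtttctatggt
ACO1: aagtatcttggcCAGTGTctcaaccttgc
IREB2: catttgctttcaCAGTGAtgagtgagagg
Among 19702 protein-coding genes, 291 (1.48%) held a full match anywhere in a transcript, 36 (0.183%) in a 5′ UTR and 132 (0.67%) in a 3′ UTR. With at least 4 pairs the numbers were 2202 (11.2%) anywhere and 907 (4.6%) in a 3′ UTR, so the weaker grade is common. HMOX1, NCOA4 and STEAP3 held neither grade of match. RNA levels do not show translation and do not tell decay from synthesis, so what these elements did in the 4 cultures was not measured.

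Ferritin was the most abundant product of the 10 genes. FTH1, the heavy chain that oxidises iron for storage (chromosome 11, 61959718 to 61967660), stood at 5655, 8662 and 10818 CPM in the EPCaTs, in order of PEGDA content, and at 15853 CPM in the flat culture. It ranked first among all genes in every library and took 0.601% to 1.49% of all counts. The 2D library was highest and each EPCaT lay below it, the PF EPCaT lowest. FTH1 was 2.80-fold lower in PF than in 2D (95% interval 2.78 to 2.82), 1.83-fold lower in PF+2%PEGDA (1.82 to 1.84) and 1.47-fold lower in PF+3%PEGDA (1.46 to 1.47).

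FTL, the light chain that helps the mineral core form (chromosome 19, 48965301 to 48966878), had 505, 1048 and 1371 CPM in the EPCaTs in the same order and 1258 CPM in 2D. The PF library stood apart at the low end, and the other 3 lay within 1.31-fold of each other. FTL was 2.49-fold lower in PF than in 2D (2.43 to 2.55) and 1.20-fold lower in PF+2%PEGDA (1.18 to 1.23). In PF+3%PEGDA it was 1.09-fold higher than in 2D (1.07 to 1.11).

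Both ferritin genes have near copies in the genome, so reads could have been split in the counting. Of the 50-base stretches in FTH1 transcripts, 48.8% also occur in other genes, 15 of them pseudogenes, and for FTL the share is 18.3%. FTH1P3, the 1 ferritin pseudogene listed in the table, held 18 to 164 counts per library, against 94244 to 232740 for FTH1. BEST1 overlaps FTH1 on the opposite strand, and its reads cannot be told apart from those of FTH1 in their shared stretch without strand: it was listed at 53.3, 89.4 and 83.1 CPM in the EPCaTs, in order of PEGDA content, and at 132 CPM in 2D.

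Within a library the chains can be set against each other with no scaling between libraries. For each FTL count, FTH1 had 11.2 counts in PF (10.9 to 11.4) and 12.6 in 2D (12.4 to 12.8), against 8.27 with 2% PEGDA (8.13 to 8.40) and 7.89 with 3% (7.77 to 8.01). The PEGDA gels had the lowest ratios, with intervals below those of PF and 2D.

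HMOX1, the inducible heme oxygenase (chromosome 22, 35380361 to 35394214), was at 42.8, 68.3 and 125 CPM in the EPCaTs in order of PEGDA content and at 61.8 CPM in 2D. The 2D level fell between the PF and PF+2%PEGDA EPCaTs, and PF+3%PEGDA was highest. Against 2D, HMOX1 was 1.45-fold lower in PF (1.31 to 1.60), 1.10-fold higher in PF+2%PEGDA (1.01 to 1.21) and 2.03-fold higher in PF+3%PEGDA (1.87 to 2.20). HMOX2, the constitutive enzyme, was at 23.8, 27.1, 17.8 and 17.7 CPM in the same order of libraries.

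**Figure D1:**
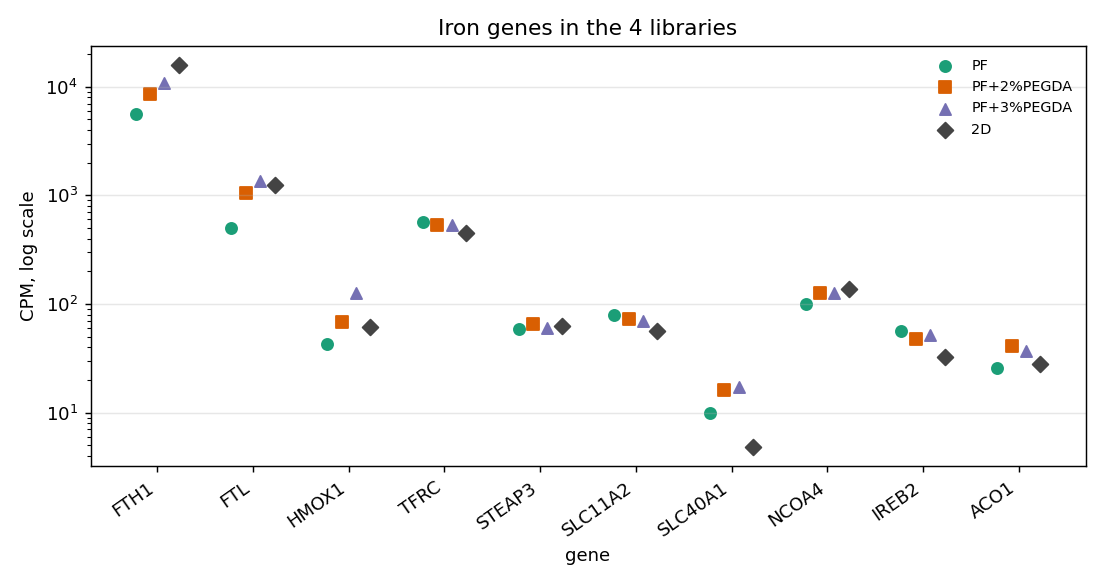
Levels of the 10 iron genes in CPM on a log scale, 1 point for each of the 4 libraries (the 3 EPCaTs and 2D). FTH1 lies above all others at 5655 to 15853 CPM, and SLC40A1 is lowest in 2D at 4.84 CPM.

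TFRC, the transferrin receptor (chromosome 3, 196027183 to 196082189), was at 565, 531 and 535 CPM in the EPCaTs, again in order of PEGDA content, and at 447 CPM in 2D. The 3 EPCaTs lay close together, above 2D. It was 1.26-fold higher in PF than in 2D (1.22 to 1.30), 1.19-fold in PF+2%PEGDA (1.15 to 1.23) and 1.19-fold in PF+3%PEGDA (1.16 to 1.24), under the 2-fold rule in each. TFRC shares no 50-base stretch with another gene.

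STEAP3, the endosomal reductase that turns ferric into ferrous iron, stood at 59.04, 66.03 and 60.7 CPM with rising PEGDA and at 62.6 CPM in flat culture. None of its intervals against 2D excluded equality. An antisense gene, STEAP3-AS1, overlaps it and held 5 to 12 counts per library, against 827 to 1025 for STEAP3. SLC11A2, known as DMT1, moves ferrous iron out of the endosome: it had 79.9, 72.3, 69.6 and 56.4 CPM in the 4 libraries, and was 1.23- to 1.42-fold higher in EPCaTs than in 2D.

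SLC40A1, ferroportin, the exporter of cellular iron (chromosome 2, 189560579 to 189583758), had the widest difference from 2D of the 10 genes in both PEGDA gels, but not in PF, where FTH1 and FTL differed by more. It was at 9.96, 16.04 and 17.2 CPM in the EPCaTs (166, 249 and 234 counts) and at 4.84 CPM in 2D (71 counts). Every EPCaT lay above 2D, and PF was the lowest of the 3. The level was 2.05-fold higher in PF than in 2D (1.55 to 2.76), 3.30-fold in PF+2%PEGDA (2.54 to 4.38) and 3.53-fold in PF+3%PEGDA (2.71 to 4.70). These intervals are wide because the counts are low.

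NCOA4, the receptor that carries ferritin to the lysosome so that its iron is released, was at 99.6 CPM in PF, 126 and 128 CPM with PEGDA and 137 CPM in 2D. It was 1.38-fold lower in PF than in 2D (1.29 to 1.47) and 1.08- to 1.09-fold lower in the PEGDA gels.

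IREB2, iron regulatory protein 2, is broken down when iron is plentiful. It was at 56.8, 47.7, 51.4 and 32.4 CPM and was 1.75-fold higher than 2D in PF (1.57 to 1.96), 1.47-fold in PF+2%PEGDA (1.31 to 1.66) and 1.58-fold in PF+3%PEGDA (1.41 to 1.78). ACO1, iron regulatory protein 1, acts as a cytosolic aconitase when it holds an iron-sulfur cluster. It was at 25.6, 41.4, 36.8 and 27.9 CPM, equal in PF and 2D within counting error, 1.48-fold higher in PF+2%PEGDA than in 2D (1.31 to 1.68) and 1.32-fold higher in PF+3%PEGDA (1.16 to 1.51). IREB2 counts were 2.22 for each ACO1 count in PF (1.98 to 2.49) against 1.15 to 1.40 in the other libraries, where all 3 intervals lay below that of PF.

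**Figure D2:**
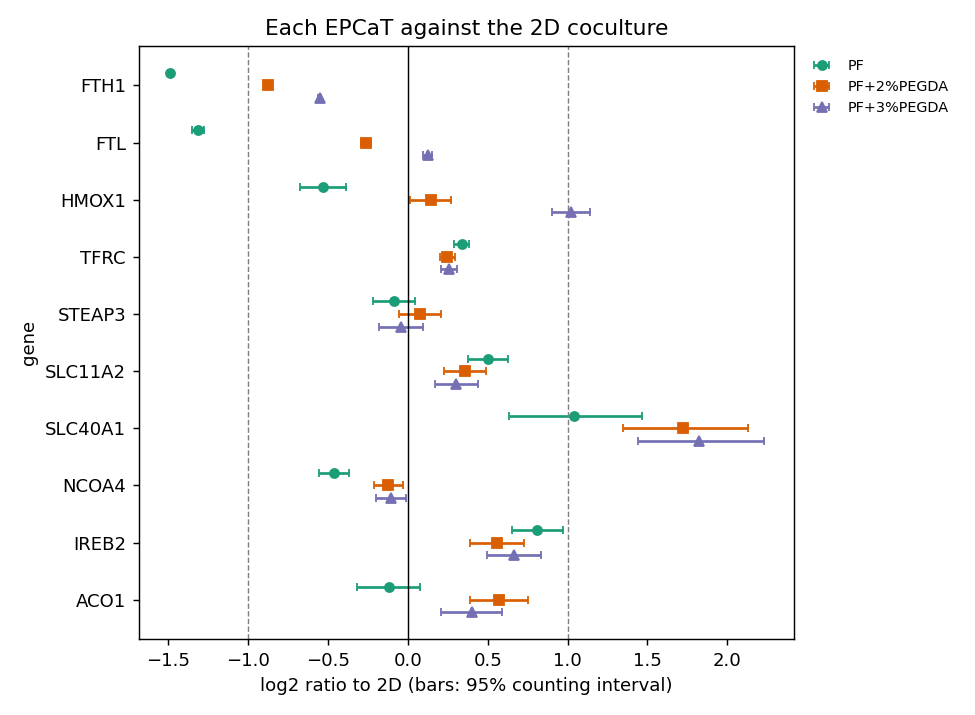
Log2 ratio of each EPCaT to the 2D library for the 10 genes, with exact 95% intervals that cover counting error. SLC40A1 lies past 1 in all 3 EPCaTs, FTH1 and FTL lie past -1 in PF, and HMOX1 lies past 1 in PF+3%PEGDA.

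Counted over the 10 genes, 1 was called higher in PF than in 2D (SLC40A1), where 16.5% of all tested genes were, and 2 were called lower (FTH1 and FTL), where 12.0% were. In PF+2%PEGDA 1 was called higher, SLC40A1, beside 12.4% of all genes, and 0 lower beside 9.45%. In PF+3%PEGDA 2 were called higher, HMOX1 and SLC40A1, beside 12.1%, and 0 lower beside 10.4%. Only SLC40A1 of the 10 was called in all 3 EPCaTs, where 7.84% of all genes were called higher. These counts among 10 genes are close to those shares. The median log2 ratio to 2D over the 10 was -0.10 in PF, 0.20 in PF+2%PEGDA and 0.28 in PF+3%PEGDA, and over all tested genes 0.02, 0.0074 and 0.0002. The 3 ratios share the 2D library, so they are not separate evidence.

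Across the gels without the 2D library, the ferritin genes and HMOX1 were higher with more PEGDA. FTL was 2.07-fold higher in PF+2%PEGDA than in PF (2.02 to 2.13) and 2.71-fold higher in PF+3%PEGDA (2.64 to 2.78). HMOX1 was 1.60-fold higher in PF+2%PEGDA (1.45 to 1.76) and 2.93-fold in PF+3%PEGDA (2.68 to 3.20), with a further 1.84-fold between the 2 PEGDA gels (1.70 to 1.98). FTH1 was 1.53-fold higher in PF+2%PEGDA (1.52 to 1.54) and 1.91-fold in PF+3%PEGDA (1.90 to 1.93), just under 2-fold. Over the scalings and other settings tried, these FTH1 ratios ran from 1.22 to 1.53 and from 1.59 to 1.92, wider than the counting intervals.

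The other members differed by less, or only between PF and the PEGDA gels. SLC40A1 was 1.61-fold higher in PF+2%PEGDA (1.32 to 1.97) and 1.72-fold in PF+3%PEGDA (1.41 to 2.12), and the PEGDA gels did not differ beyond counting error. ACO1 was 1.61- and 1.43-fold higher than in PF, NCOA4 1.27- and 1.28-fold. IREB2 was 1.19- and 1.11-fold lower, SLC11A2 1.10- and 1.15-fold lower, TFRC 1.06-fold lower in both. STEAP3 was 1.12-fold higher in PF+2%PEGDA (1.02 to 1.22) and equal to PF within counting error in PF+3%PEGDA. None of these differed beyond counting error from one PEGDA gel to the other.

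**Figure D3:**
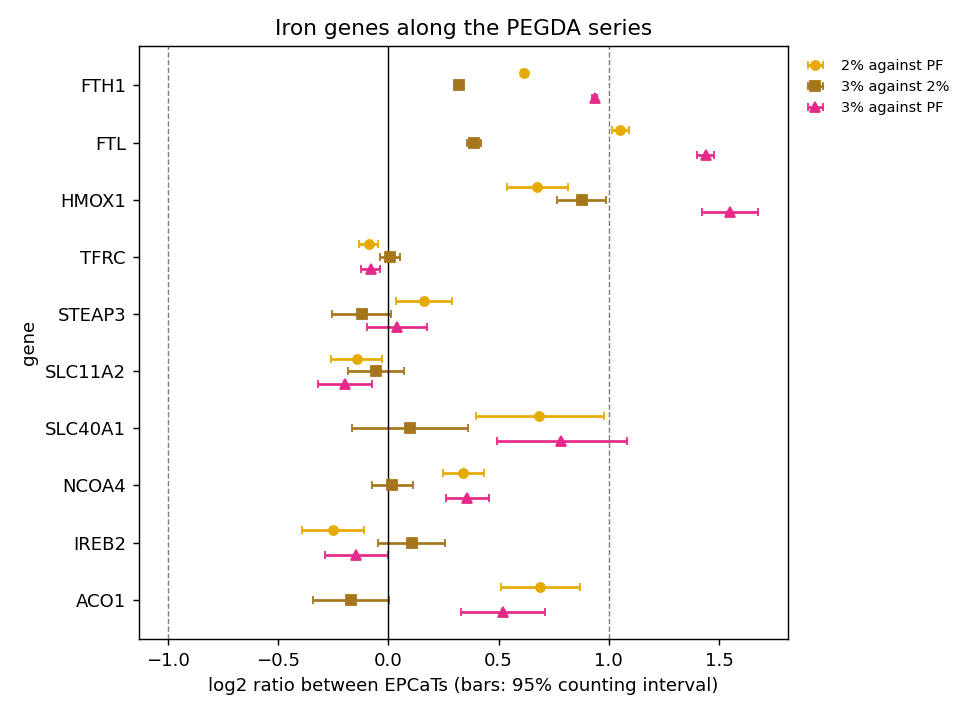
Log2 ratio of PF+2%PEGDA and PF+3%PEGDA to PF, and of PF+3%PEGDA to PF+2%PEGDA, for the 10 genes, with exact 95% intervals for counting error. FTL and HMOX1 lie past 1 for PF+3%PEGDA against PF.

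In PF+2%PEGDA against PF, 1 of the 10 was called higher, FTL, where 2.97% of tested genes were, and 0 lower, where 5.56% were (8.53% either way). In PF+3%PEGDA against PF, FTL and HMOX1 were called higher, beside 3.63% of genes, and 0 were called lower, beside 7.51%. Between the PEGDA gels no member was called, where 1.85% of genes were called higher and 2.41% lower (4.26% either way). FTL and HMOX1 also met the rule for genes that go one way with PEGDA, in which each step excludes equality, as 0.929% of all tested genes did upward, 2.23% downward and 3.16% either way. Median log2 ratios to PF over the 10 were 0.48 and 0.44 for 2% and 3%, against 0.0025 and 0.0013 for all genes. The FTL call in PF+2%PEGDA does not hold under 2 other settings (1.98-fold with total counts, 1.77-fold with a length and GC trend removed), and both ratios to PF share that library.

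Set against FTH1 alone, TFRC took a different share in each library. TFRC itself was at 447 to 565 CPM and FTH1 at 5655 to 15853 CPM, so most of the spread lay in FTH1. FTL, at 1371 CPM in PF+3%PEGDA and 1258 in 2D, was not used in this ratio. FTH1 counts were 10.0 times those of TFRC in PF, 16.3 and 20.2 times in the gels with 2% and 3% PEGDA, and 35.4 times in 2D. The ratio of TFRC to FTH1 was 0.100 in PF (0.0979 to 0.102) and 0.0282 in 2D (0.0275 to 0.0289), with the PEGDA gels between, and no interval overlaps another. This pair was chosen after its values were seen.

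**Figure D4:**
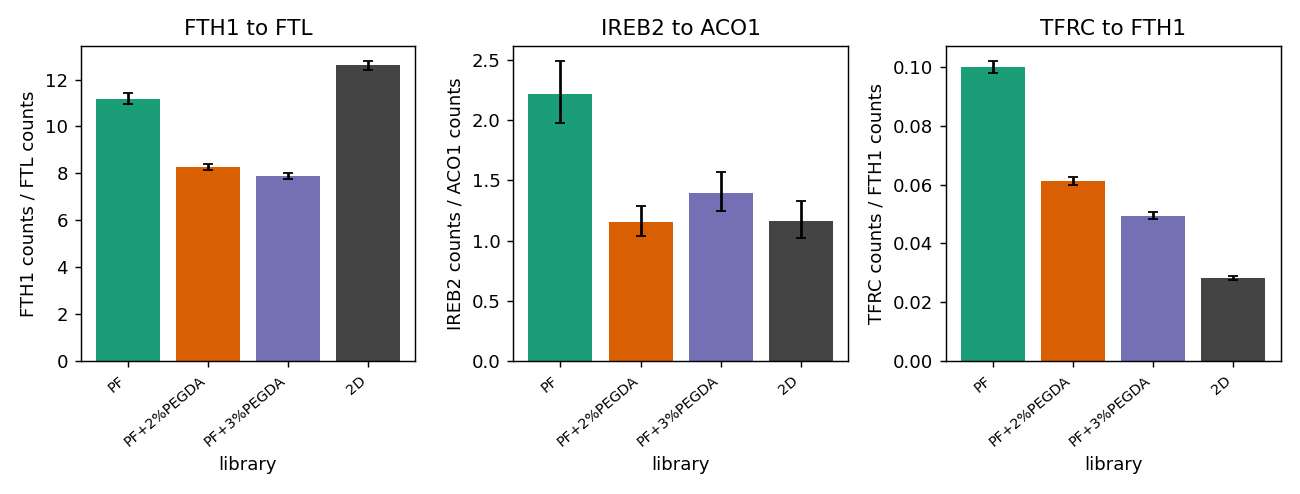
Ratios of counts within a library for FTH1 to FTL, IREB2 to ACO1 and TFRC to FTH1 in the 4 libraries, with exact 95% intervals for counting error. FTH1 to FTL is lowest in the PEGDA gels, IREB2 to ACO1 is highest in PF at 2.22, and TFRC to FTH1 is lowest in 2D.

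Per kilobase of transcript, so that genes can be compared, FTH1 was at 7887 to 22110 CPM per kb, FTL at 576 to 1561 and TFRC at 117 to 148, the 3 highest of the 10 in every library whether mean or longest transcript length was used. HMOX1 was at 31.2 to 91.4 CPM per kb, NCOA4 at 39.2 to 54.0 and SLC11A2 at 26.3 to 37.3. SLC40A1 (4.51 to 16) and ACO1 (5.23 to 8.45) were the 2 lowest, and their order changed between libraries and with the length used. In PF, SLC40A1 was at 9.28 and ACO1 at 5.23 by mean length, against 2.89 and 3.43 by longest length.

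Other genes of iron uptake, export and body iron control were called in both directions. Of 17 tested, CP, SCARA5 and HEPHL1 were called higher in all 3 EPCaTs and SLC39A14 and LCN2 lower, while 7.84% and 6.07% of all genes were. CP, the ferroxidase that loads exported iron onto transferrin, was at 8.52, 11.6 and 12.5 CPM in the EPCaTs and 0.477 in 2D (7 counts). SCARA5, a ferritin receptor, was at 48.6, 70.5 and 61.7 CPM against 17.6 in 2D. LCN2, which binds iron-carrying siderophores, was at 69.1, 71.05 and 60.2 CPM against 306 in 2D, and SLC39A14, a transporter of iron not bound to transferrin, at 89.5, 103.7 and 128 CPM against 296.5. BMP6, a signal to liver cells for iron control, was 2.21-fold higher in PF+3%PEGDA than in PF (1.58 to 3.15).

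Of the genes that make heme, 0 of 11 tested were called in all 3 EPCaTs, beside 13.9% of all genes either way. Their median log2 ratio to 2D was -0.17, -0.37 and -0.37. In PF alone, UROD, TMEM14C and UROS were called lower, beside 12.0% of all genes, and ALAD higher, beside 16.5%. Of 13 genes of heme transport and breakdown, ABCB6, a porphyrin transporter, was the 1 called in all 3, beside 13.9% of all genes. ABCB6 was at 60.5, 60.7 and 69.5 CPM against 11.2 in 2D (5.41-, 5.42- and 6.20-fold). FLVCR1, described as a heme exporter, was 2.00-, 2.01- and 1.99-fold higher, the last just under the rule.

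Of 26 tested genes of iron-sulfur cluster assembly, 2 were called lower in all 3 EPCaTs, beside 6.07% of all genes. HSPA9, a mitochondrial chaperone, was 1 of them. In all 3, 0 were called higher, beside 7.84%. HSPA9 was at 240, 216 and 213 CPM against 595 in 2D. ISCU, the scaffold on which clusters are built, was at 67.3, 64.7 and 71.1 CPM against 118 in 2D, under the 2-fold rule in each. The median log2 ratio of the list was -0.52, -0.28 and -0.33. Of 13 tested genes of chaperones, ferritin turnover and breakdown of iron regulatory proteins, 0 were called in all 3, beside 13.9% of all genes. In PF alone 2 were called lower than in 2D, beside 12.0%. HERC2 was called lower in PF+3%PEGDA (59.9 CPM) than in PF (139 CPM), beside 7.51%. FBXL5, part of the ligase that tags IREB2, was at 27.3, 32.1, 42.3 and 28.1 CPM.

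Tested genes of lipid peroxidation and ferroptosis, the iron-dependent form of cell death, numbered 16. PROM2 and PTGS2 were called higher in all 3 EPCaTs, beside 7.84% of all genes, and SLC3A2 and CHAC1 lower, beside 6.07%. SLC3A2, which carries the cystine transporter, was at 233, 281 and 303 CPM against 2159 in 2D, and CHAC1, which degrades glutathione, at 17.2, 21.5 and 20.7 against 204. GPX4, which removes lipid peroxides, was at 155, 287 and 334 CPM against 302 in 2D, and 2.15-fold higher in PF+3%PEGDA than in PF (2.05 to 2.26).

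HMOX1 is among the genes that NRF2 turns on. Of 19 others tested, AKR1C2 alone was called higher in all 3 EPCaTs, at 1.08 to 2.13 CPM, beside 7.84% of all genes. In all 3, 0 were lower, beside 6.07%. TXN, 1 of the 19, was called higher in PF+3%PEGDA than in PF, beside 3.63% of all genes. TXN was at 44.3, 93.02, 89.9 and 78.8 CPM, and NQO1, a quinone reductase, was at 98, 151, 151 and 126 CPM. BACH1, which represses HMOX1, was at 56.9, 63.3, 77.3 and 60.2 CPM. All 12 genes of a low-oxygen list were called higher in every EPCaT, beside 7.84% of all genes, and summed to 9194 to 12364 CPM against 1533 in 2D. Of 12 proliferation genes, 5 were called lower in PF+3%PEGDA than in PF, beside 7.51% of all genes. Against 2D, 10, 8 and 5 of them were called higher in the EPCaTs in order of PEGDA content, beside 16.5%, 12.4% and 12.1%. They summed to 502 to 924 CPM in EPCaTs and 216 in 2D. The part of either list in the iron genes was not tested.

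**Figure D5:**
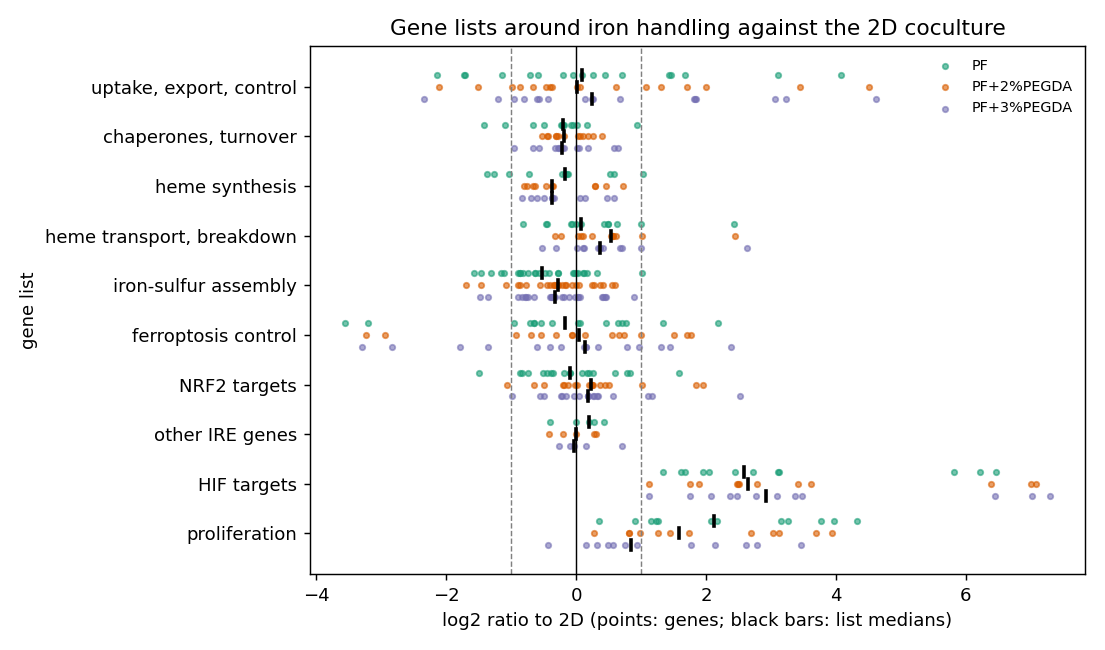
Log2 ratio to 2D of every tested gene in the pathway lists, 1 point per gene and EPCaT, with the median of each list as a black bar. The low-oxygen list lies to the right of 0 in all 3 EPCaTs, and the lists of iron and heme genes spread across 0.

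The genes whose levels over the 4 libraries most resembled those of FTH1, in centred log2 CPM among 11725 genes with a mean of at least 5 CPM, were MIR31HG, CCNB1IP1 and ZNF639, which never lay more than 0.05, 0.05 and 0.06 from it. For HMOX1 they were DUSP10, FGFBP1 and CDKN1C (0.17, 0.18 and 0.22), and for TFRC RNF111, DNAJC5 and DIPK1A (0.01, 0.01 and 0.02). The likeness describes these 4 libraries.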

How the data were processed

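RNA was extracted with QIAshredder and RNeasy and made into libraries with the TruSeq RNA v2 kit, per the labels. Per the submitters' processing notes, FastQC, STAR, Partek and hg38 were used; versions, annotation and counting method are not given in the sources used here. The authors deposited expected counts, which are estimated reads per gene, with 18.2% to 19.9% of values per library not whole at a tolerance of 0.01. They were rounded. The 14851 of 17791 genes that reached 1 CPM in any library were kept and scaled with TMM in edgeR 4.0.16 (R 4.3.3). Log2 ratios used a prior count of 0.5. Python 3.11.15, numpy 2.4.6, pandas 2.3.3, scipy 1.17.1 and matplotlib 3.10.9 did the rest, and the calling was tested on simulated data. GENCODE release 29 matched 16628 symbols.

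The members and lists were chosen with earlier results of these data known. From each list up to 4 genes were picked by the interval bound nearest to equality over the 3 ratios to 2D. Up to 2 were picked by PF+3%PEGDA against PF, all at 5 CPM or more. Not all genes picked in this way are named here, and other genes were chosen after their values were seen. Other settings tried were scaling by upper quartile, by total counts or by DESeq2 1.42.0, other filters, prior counts, rounding, fold rules and a length and GC trend. The result for 1 list gene is not reported here.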

Additional observations from a re-analysis of the deposited data

How the results depend on the processing

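Of 9 calls among the 10 genes, all 9 held with DESeq2 size factors, upper quartile scaling, a prior count of 2 and values rounded down, and 8 of 9 with total counts alone and with a length and GC trend removed. The call lost in both was FTL in PF+2%PEGDA against PF, where members called higher went from 1 to 0 under either setting. All tested genes called higher there went from 441 to 369 with total counts and 355 with the trend removed. No call reversed. The sizes of the ratios held less well. Of 60 ratios of the 10 genes, 24 fell outside their counting intervals with total counts alone and 21 with the trend removed. With DESeq2 size factors 2 did, and with upper quartile scaling 2. In PF against 2D, FTH1 ran from 2.15- to 2.84-fold lower and TFRC from 1.11- to 1.43-fold higher over these settings. At a 1.5-fold rule, members called higher in PF against 2D went from 1 to 2. Those called lower in PF+2%PEGDA against 2D went from 0 to 1. Against PF, higher calls went from 1 to 5 in PF+2%PEGDA and 2 to 4 in PF+3%PEGDA, and 0 to 1 between the PEGDA gels. Among all 14851 tested genes, the counts against 2D went from 2450 to 3845 higher and 1403 to 2719 lower. The counts between gels went from 441 to 1265, 539 to 1609 and 275 to 524 in the same order. The pathway genes lower in all 3 EPCaTs went from 6 to 16, and all tested genes so called from 902 to 1813. At a 4-fold rule, every such count of members was 0, while 1.16% to 9.57% of all tested genes were called in each pair. Pathway genes called in all 3 were then 15 higher, from 24, and 3 lower. All tested genes called in all 3 were 451 higher, from 1165, and 216 lower. Of those 24, 12 were of the low-oxygen list and 5 of the proliferation list. All tested genes called between the PEGDA gels numbered 633, and 161 at a minimum of 5 CPM. With total counts alone, the median of all genes in PF against 2D moved from 0.02 to 0.20 and in PF+2%PEGDA against 2D from 0.0074 to 0.12, the share of calls in PF against 2D that were higher from 57.9% to 68.4%, and among genes in order with PEGDA from 29.4% to 16.3%. No paired analysis was possible because each group had 1 library. Depth limits SLC40A1 most, at 71 counts in 2D.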
